A study of Homo sapiens with 6 samples.

Results

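The miR-106b-25 and miR-106a-363 clusters are the human paralogs of the miR-17-92 cluster, and 10 of their mature miRNAs were examined on miRNA arrays of Panc-1 cells. Members were the array probes named hsa-miR-106b-5p, hsa-miR-106b-3p, hsa-miR-93-5p, hsa-miR-93-3p, hsa-miR-25-3p and hsa-miR-25-5p for the first cluster and hsa-miR-106a-5p, hsa-miR-18b-5p, hsa-miR-20b-5p and hsa-miR-363-3p for the other, written without the species prefix from here on. Each name was found on a single probe, which gave 10 of the 2565 miRNA probes. Panc-1 is a human cell line established from a pancreatic ductal carcinoma. The study hybridized RNA from control Panc-1 cells to 3 arrays and RNA from Panc-1 cells treated with TGF-β at 10 ng/mL for 72 h to 3 arrays. Control cells received no TGF-β, and TGF-β was the only agent that differed between the groups according to the labels. Each group occupied a slide of its own, so slide and treatment cannot be told apart.

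Animal miRNAs are cut from hairpin precursors, and each precursor can yield a mature strand from its 5′ arm and from its 3′ arm, of which the more stable one usually acts as the guide that pairs with target mRNAs through its seed. The miR-17 family members of these clusters are known as repressors of cell cycle inhibitors and of components of TGF-β signaling, and miR-106b, miR-93 and miR-25 are often raised in carcinomas. TGF-β is a secreted cytokine that halts the growth of many epithelial cells and induces the epithelial to mesenchymal transition in pancreatic cancer cells.

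In the RefSeq annotation of GRCh38.p14, the miR-106b-25 cluster holds 3 precursor genes, MIR106B, MIR93 and MIR25, over 515 bp of the minus strand of chromosome 7 from 100093560 to 100094074. These genes lie inside the interval of MCM7, which encodes a subunit of the replicative helicase and runs from 100092728 to 100101397. The miR-106a-363 cluster holds 6 precursor genes over 901 bp of the minus strand of chromosome X from 134169378 to 134170278, inside the lncRNA gene MIR106AHG. The miR-17-92 cluster, also of 6 precursor genes, covers 787 bp of the plus strand of chromosome 13 from 91350605 to 91351391, inside the lncRNA gene MIR17HG. The array files themselves carry no coordinates.

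The mature sequences show which members have close paralogs and which do not; what this means for their signals was not tested. RefSeq (GRCh38.p14) held a mature sequence for 10 of the 10 members and for 2281 of the 2588 names on the array. All counts of array miRNAs that share a seed cover these 2281 names only. They are written 5′ to 3′ in lower case with the seed, bases 2 to 8, in capitals. Of the members, 4 share the seed of the miR-17 family, and 8 miRNAs named on the array have it. miR-17-5p and miR-20a-5p of the miR-17-92 cluster are set beside them.
miR-106b-5p: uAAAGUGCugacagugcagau
miR-93-5p: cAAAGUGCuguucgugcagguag
miR-106a-5p: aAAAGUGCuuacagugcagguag
miR-20b-5p: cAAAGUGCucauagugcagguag
miR-17-5p: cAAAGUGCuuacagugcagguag
miR-20a-5p: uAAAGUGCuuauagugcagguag

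These 4 members come from chromosome 7 at 100094043 to 100094063 (miR-106b-5p) and 100093815 to 100093837 (miR-93-5p) and from chromosome X at 134170244 to 134170266 (miR-106a-5p) and 134169850 to 134169872 (miR-20b-5p), each on the minus strand. Positions of base differences count from 1 at the 5′ end, with the base of the first-named miRNA first. miR-106a-5p and miR-17-5p differ at 1 of 23 bases (A1C), and miR-20b-5p and miR-20a-5p at 2 of 23 (C1U and C10U). Across the paralogs, miR-93-5p and miR-20b-5p differ at 3 of 23 bases (G10C, U11A and C13A), and miR-106b-5p and miR-106a-5p at 3 of the 21 bases compared (U1A, G10U and A20G).

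The seed of the miR-25 and miR-92 family is shared by miR-25-3p (chromosome 7, 100093571 to 100093592, minus strand) and miR-363-3p (chromosome X, 134169382 to 134169403, minus strand). On the array, 6 named miRNAs have this seed, and miR-92a-3p is the one that the miR-17-92 cluster and the chromosome X cluster both encode.
miR-25-3p: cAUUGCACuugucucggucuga
miR-363-3p: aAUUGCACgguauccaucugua
miR-92a-3p: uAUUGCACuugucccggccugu

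Outside the seed this pair is much less alike than the miR-17 family members: miR-25-3p and miR-363-3p differ at 13 of 22 bases, and miR-363-3p and miR-92a-3p at 12 of 22. miR-25-3p and miR-92a-3p differ at 4 of 22 (C1U, U14C, U18C and A22U).

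miR-18b-5p (chromosome X, 134170084 to 134170106, minus strand) has a seed that 3 named miRNAs on the array share, and it differs from miR-18a-5p of the miR-17-92 cluster at 1 of 23 bases (U20A). The strands from the opposite arms of the chromosome 7 precursors each have a seed found in no other sequence matched to the array. They lie on the minus strand at 100094002 to 100094023 (miR-106b-3p), 100093777 to 100093798 (miR-93-3p) and 100093610 to 100093630 (miR-25-5p).
miR-18b-5p: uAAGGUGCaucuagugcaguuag
miR-18a-5p: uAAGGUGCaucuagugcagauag
miR-106b-3p: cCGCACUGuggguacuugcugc
miR-93-3p: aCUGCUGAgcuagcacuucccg
miR-25-5p: aGGCGGAGacuugggcaauug

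All 10 members gave a signal above the detection limit on all 6 arrays. The limit was the mean of the array's blank spots plus 2 SD, which was 19.5, 20.4 and 22.8 intensity units on control replicates 1, 2 and 3 and 20.7, 19.8 and 22.2 units on TGF-β replicates 1, 2 and 3. Over the whole array, 1282 of 2565 miRNA probes were detected on all 6 arrays. A probe's signal also depends on how well it hybridizes, so the order of the signals given side by side here is no order of amounts, and no test was made between probes.

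The miR-17 family members of both clusters gave bright signals in both groups. For miR-106b-5p the means were 1720 ± 215 units (SD, n = 3) without and 1670 ± 223 with TGF-β, and for miR-93-5p they were 1110 ± 163 and 1050 ± 108. From the chromosome X cluster, miR-106a-5p gave 2110 ± 413 units without and 2280 ± 236 with TGF-β, and miR-20b-5p gave 1640 ± 319 and 1740 ± 253. For each of these miRNAs the difference between the group means was smaller than the SD within the control group. The probes of the closest relatives on chromosome 13 had signals of 1890 ± 377 and 2110 ± 238 (miR-17-5p) and 1730 ± 375 and 1780 ± 146 (miR-20a-5p) in the same order. The files give no probe sequences, and how much of the miR-106a-5p and miR-20b-5p signals came from miR-17-5p and miR-20a-5p was not tested.

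The members of the other seed groups differed widely in signal. miR-25-3p, the guide strand of MIR25, gave 632 ± 102 units (SD, n = 3) without and 643 ± 105 with TGF-β, whereas miR-363-3p gave 31.6 ± 4.06 and 31.3 ± 2.01. miR-363-3p was thus near the background, between 14.7 and 25.9 blank-spot SDs above the blank mean, compared with 768 to 1320 SDs for miR-25-3p. miR-18b-5p gave 158 ± 9.53 units without and 166 ± 29.7 with TGF-β, beside 223 ± 37.7 and 242 ± 14 for miR-18a-5p.

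The opposite strands from chromosome 7 were all detected at low signals. The means in control and TGF-β-treated cells were 37.1 ± 3.63 and 37.7 ± 2.22 units (SD, n = 3 each) for miR-106b-3p, 30.6 ± 2.41 and 32.1 ± 1.4 for miR-93-3p, and 31.1 ± 4.17 and 32.4 ± 2.81 for miR-25-5p. The lowest of these signals on any array stood 13.4 SDs above the blank mean, for miR-25-5p on control replicate 1.

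**Figure D1:**
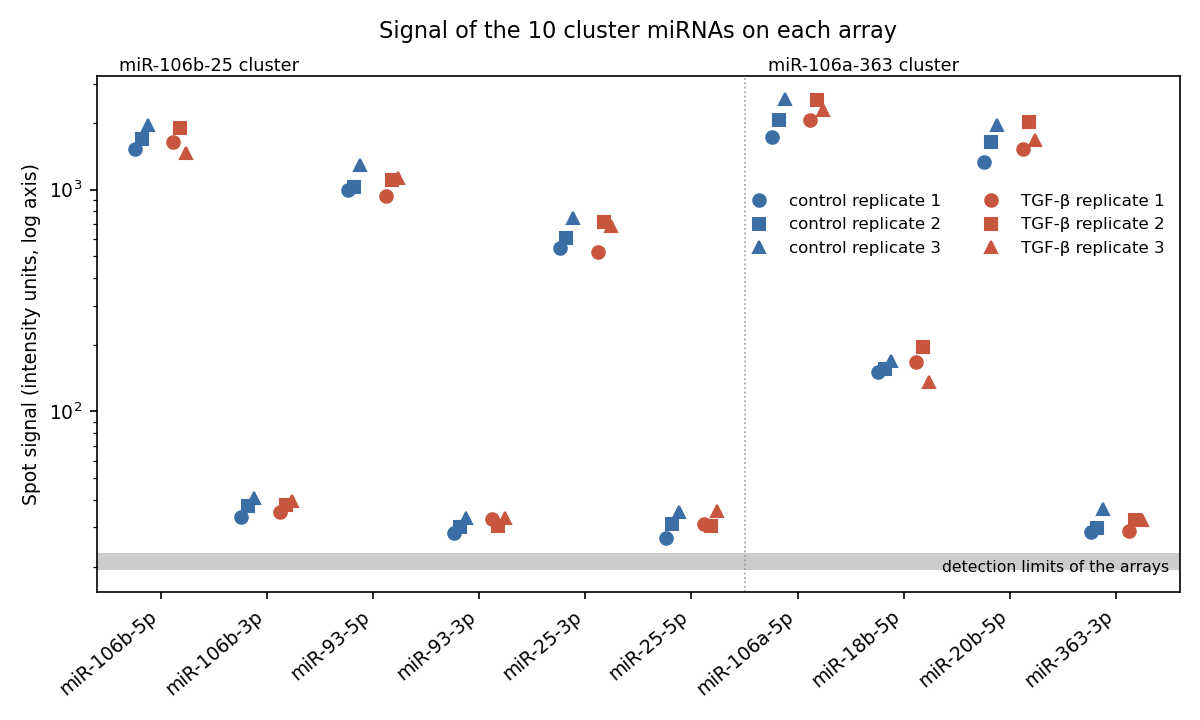
Spot signal in intensity units on a log axis for the 10 miRNAs of the miR-106b-25 and miR-106a-363 clusters, 1 point for each array, with blue for control, red for TGF-β and symbols for the replicates. The grey band spans the detection limits of the 6 arrays, 19.5 to 22.8 units, and every point of every member lies above it.

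Detection of the remaining products of the chromosome X cluster was uneven. Of these, 8 names were on the array, and 6 were detected on all 6 arrays. miR-19b-3p (1510 ± 293 units without and 1710 ± 169 with TGF-β; SD, n = 3) and miR-92a-3p (236 ± 17 and 238 ± 11.7) were bright, but chromosome 13 encodes the same mature sequences, and the source of their signal cannot be told apart. Those of these remaining products that only the chromosome X cluster encodes were dim. miR-20b-3p gave 27.7 to 33 units, miR-92a-2-5p 21.4 to 24.2, miR-18b-3p 20.2 to 25.7 and miR-363-5p 20.4 to 23.9. miR-106a-3p and miR-19b-2-5p were each above the limit on 1 of the 6 arrays, control replicate 3 and TGF-β replicate 2 respectively.

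The cell type was checked with miRNAs commonly high in cultured carcinoma cells, and miR-21-5p, miR-23a-3p, miR-24-3p, miR-221-3p, miR-222-3p and miR-31-5p were each detected on all 6 arrays, miR-21-5p with 18400 to 25500 units. Among epithelial markers, miR-200b-3p was detected on 6 arrays at 24.3 to 31 units, miR-200c-3p and miR-205-5p on 1 array each, and miR-141-3p on 0. Of markers of other cells, miR-142-3p was above the limit on 6 arrays (20.5 to 29.1 units), the erythroid miR-451a on 5 (18.1 to 23.8 units), miR-223-3p on 4, miR-144-3p and the hepatic miR-122-5p on 3 each, the neuronal miR-124-3p and the acinar miR-216a-5p on 2 each, the islet miR-375 on 1 and the acinar miR-217 on 0.

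The comparison of Panc-1 cells treated with TGF-β with control addressed whether the clusters respond to the cytokine. No member passed the test. limma on quantile-normalized log2 signals, with Benjamini-Hochberg adjustment over the 1457 miRNAs that every array of either group detected, called 0 of the 10 members at an adjusted p under 0.05, compared with 3.98% (58) of all miRNAs tested. At an unadjusted p under 0.05 there was 1 of the 10 members, miR-93-5p, with limma (13.9% of all miRNAs tested) and also with the methods' t-test (13.3%), which called 0 members after adjustment. There were 0 such members in limma without the trend, with the local background, with median or 75th percentile scaling, without normalization and in the deposited values, and there were 2, miR-93-5p and miR-18b-5p, without TGF-β replicate 3. The adjusted p of the members ran from 0.143 to 0.969. Their log2 differences, TGF-β minus control, ran from -0.19 to 0.16 with a median of 0.04, compared with a median of -0.01 over all miRNAs tested. With 1 array left out, the members' median ran from -0.00564 (without control replicate 1) and 0.00252 (without TGF-β replicate 2) to 0.07 (without control replicate 2). It was 0.07 with median or 75th percentile scaling and 0.18 in the deposited values, where that of all miRNAs was 0.11. Of the members, 6 had a difference above 0 and 4 below 0, beside 692 above and 765 below among the 1457 miRNAs tested. In the deposited values every member had a difference above 0, and 3 lay below the median of all miRNAs, 0.11.

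In these bulk samples fewer cells and less RNA per cell cannot be told apart. The labels name the replicates as separate samples and do not say that they came from separate cultures, so the p-values may measure technical spread. The precision is limited by the number of arrays, and an exact permutation test of 3 arrays against 3 (2-sided) cannot go below p = 0.1.

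By cluster, the miR-106b-25 members had a median log2 difference of 0.01, with 3 of 6 above 0, and the miR-106a-363 members a median of 0.04, with 3 of 4 above 0. These medians cover unlike sets, because the miR-106a-363 members include no opposite strand. In miR-106b-25 the guides miR-106b-5p, miR-93-5p and miR-25-3p lay below 0 (-0.06, -0.19 and -0.06). Its dim opposite strands miR-106b-3p, miR-93-3p and miR-25-5p lay above 0 (0.08, 0.16 and 0.14). The median of miR-106b-25 was slightly below 0 without background correction (-0.01) and with 16 units added in place of the floor (-0.01). The same held without control replicate 1 (-0.02), control replicate 3 (-0.01) or TGF-β replicate 2 (-0.00214). This median over both arms thus gives no direction. It was 0.06 without control replicate 2, 0.02 and 0.04 without TGF-β replicates 1 and 3, 0.05 and 0.06 with median and 75th percentile scaling, 0.03 without normalization, 0.02 with the local background and 0.16 in the deposited values. The median of miR-106a-363 was 0.00252 without TGF-β replicate 2, 0.02 without control replicate 1, 0.07 without control replicate 2, 0.06 without TGF-β replicate 3, 0.10 with median or 75th percentile scaling, 0.08 without normalization, 0.20 in the deposited values and 0.31 with the local background. Every TGF-β array lay below every control array for 1 of the 10 members, miR-93-5p, compared with 10.1% of all miRNAs tested, and every TGF-β array lay above for 0, compared with 8.79%. The groups overlapped for the other 9 members, including all 4 of the miR-106a-363 cluster.

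miR-93-5p, the miR-17 family member of MIR93, had the lowest unadjusted p among the members. Its normalized log2 signal was 10.14, 10.14 and 10.18 on control replicates 1, 2 and 3 and 9.96, 9.89 and 10.05 on TGF-β replicates 1, 2 and 3. The TGF-β arrays were all lower, and the gap to the nearest control array was smaller than the range of the TGF-β arrays. The log2 difference was -0.19 (standard error 0.06, 95% interval -0.32 to -0.06), a ratio of 0.878, with p = 0.00895 and adjusted p = 0.143 in limma and p = 0.1 in the exact permutation test (2-sided).

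The separation of miR-93-5p depended on the processing. Every TGF-β array stayed below every control array without background correction (log2 difference -0.184) and with 16 units added in place of the floor (-0.185). With 1 array left out, the log2 difference of miR-93-5p ran from -0.22 (without TGF-β replicate 3) to -0.15 (without TGF-β replicate 2). Before normalization its signals were 998, 1031 and 1294 for control replicates 1 to 3 and 932, 1099 and 1133 for TGF-β replicates 1 to 3, and the groups overlapped. They also overlapped with median scaling, where the log2 difference was -0.04, and in the deposited values, which were 4037, 4363 and 4289 for control replicates 1 to 3 and 3798, 5166 and 4358 for TGF-β replicates 1 to 3. The difference was 0.06 in the deposited values, in which the median of all miRNAs was 0.11, so that miR-93-5p lay -0.05 from that median, and it was 0.32 with the local background of each spot.

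miR-106b-5p, the first miRNA of the chromosome 7 cluster, had normalized log2 signals of 10.77, 10.76 and 10.64 for control replicates 1 to 3 and 10.81, 10.69 and 10.48 for TGF-β replicates 1 to 3. The highest and the lowest value were both from TGF-β arrays, so the control values lay within the range of the treated ones. With TGF-β the log2 difference was -0.06 (standard error 0.08, 95% interval -0.24 to 0.12, adjusted p = 0.834 in limma). It was 1.66 with the local background (adjusted p = 0.99), 0.08 in the deposited values, 0.03 without TGF-β replicate 3, -0.13 without TGF-β replicate 1 and -0.11 without control replicate 3, and it was nearer to 0 with median scaling (-0.02).

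miR-25-3p had nearly equal values on the control arrays, 9.30, 9.30 and 9.32, and its values were 9.16, 9.25 and 9.32 for TGF-β replicates 1 to 3. TGF-β replicates 1 and 2 were below all control arrays, and TGF-β replicate 3 was level with control replicate 3. The log2 difference was -0.06 (standard error 0.06, 95% interval -0.20 to 0.07, adjusted p = 0.739 in limma), and its sign turned with median scaling (0.05), with 75th percentile scaling (0.05), without normalization (0.02) and in the deposited values (0.15). It was -0.20 with the local background, -0.01 without TGF-β replicate 1 and -0.10 without TGF-β replicate 3.

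The opposite strands of the 3 precursors had differences above 0, with wider intervals than the guide strands. They were 0.08 for miR-106b-3p (95% interval -0.19 to 0.35), 0.16 for miR-93-3p (-0.16 to 0.48) and 0.14 for miR-25-5p (-0.22 to 0.49), with adjusted p from limma of 0.865, 0.705 and 0.795. For miR-93-3p and miR-25-5p the difference was below 0 with the local background (-0.02 and -0.01), and for miR-25-5p also without control replicate 1 (-0.01). With 1 array left out, miR-106b-3p ran from 0.03 (without control replicate 3) to 0.16 (without control replicate 2), miR-93-3p from 0.06 (without TGF-β replicate 1) to 0.24 (without TGF-β replicate 2) and miR-25-5p up to 0.24 (without control replicate 2). In the deposited values the differences were 0.17, 0.29 and 0.28 in this order. Without background correction they were 0.04, 0.06 and 0.05, and with 16 units added in place of the floor 0.04, 0.07 and 0.06. On single arrays miR-93-3p had 3.43, 3.60 and 3.34 for control replicates 1 to 3 and 3.83, 3.47 and 3.57 for TGF-β replicates 1 to 3. TGF-β replicate 1 was the highest of these, and the other TGF-β arrays lay within the control range.

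On the chromosome X side, miR-106a-5p had normalized log2 signals of 10.99, 11.13 and 11.09 for control replicates 1 to 3 and 11.09, 11.13 and 11.09 for TGF-β replicates 1 to 3. Control replicate 1 was the lowest, and the TGF-β arrays lay within the range of the control arrays to 2 decimals. With TGF-β the log2 difference was 0.03 (standard error 0.05, 95% interval -0.08 to 0.15, adjusted p = 0.865 in limma), the narrowest interval of the 10 members in this setting. It moved beyond that interval with the local background (0.55) and in the deposited values (0.25), it was 0.15 with median or 75th percentile scaling and 0.13 without normalization, and with 1 array left out it ran from -0.01 (without control replicate 1) to 0.07 (without control replicate 2).

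miR-20b-5p had 10.57, 10.69 and 10.66 for control replicates 1 to 3 and 10.66, 10.81 and 10.71 for TGF-β replicates 1 to 3. TGF-β replicates 2 and 3 were above all control arrays, and TGF-β replicate 1 was not. The log2 difference was 0.09 (standard error 0.06, 95% interval -0.05 to 0.22, adjusted p = 0.588 in limma), and it was above 0 in the 13 alternatives that alter the log2 difference, from 0.04 (without TGF-β replicate 2) and 0.05 (without control replicate 1) to 0.22 in the deposited values and 1.18 with the local background. Over all 20 alternatives its adjusted p ran from 0.461 to 0.991.

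miR-18b-5p varied most among the TGF-β arrays. Its values were 7.17, 7.17 and 7.005 for control replicates 1 to 3 and 7.44, 7.28 and 6.76 for TGF-β replicates 1 to 3, so TGF-β replicates 1 and 2 were above all control arrays and TGF-β replicate 3 was below them. With TGF-β the log2 difference was 0.05 (standard error 0.15, 95% interval -0.28 to 0.37, adjusted p = 0.95 in limma). It was 0.24 without TGF-β replicate 3, -0.10 without TGF-β replicate 1, 0.08 with median scaling and 0.19 in the deposited values.

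miR-363-3p, the dimmest guide of the chromosome X cluster among the members, had 3.46, 3.55 and 3.67 for control replicates 1 to 3 and 3.39, 3.68 and 3.50 for TGF-β replicates 1 to 3. The lowest and the highest value were from TGF-β arrays. The log2 difference was -0.03 (standard error 0.14, 95% interval -0.33 to 0.27, adjusted p = 0.969 in limma), and it was 0.09 in the deposited values, 0.03 without TGF-β replicate 1 and -0.11 without TGF-β replicate 2.

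**Figure D2:**
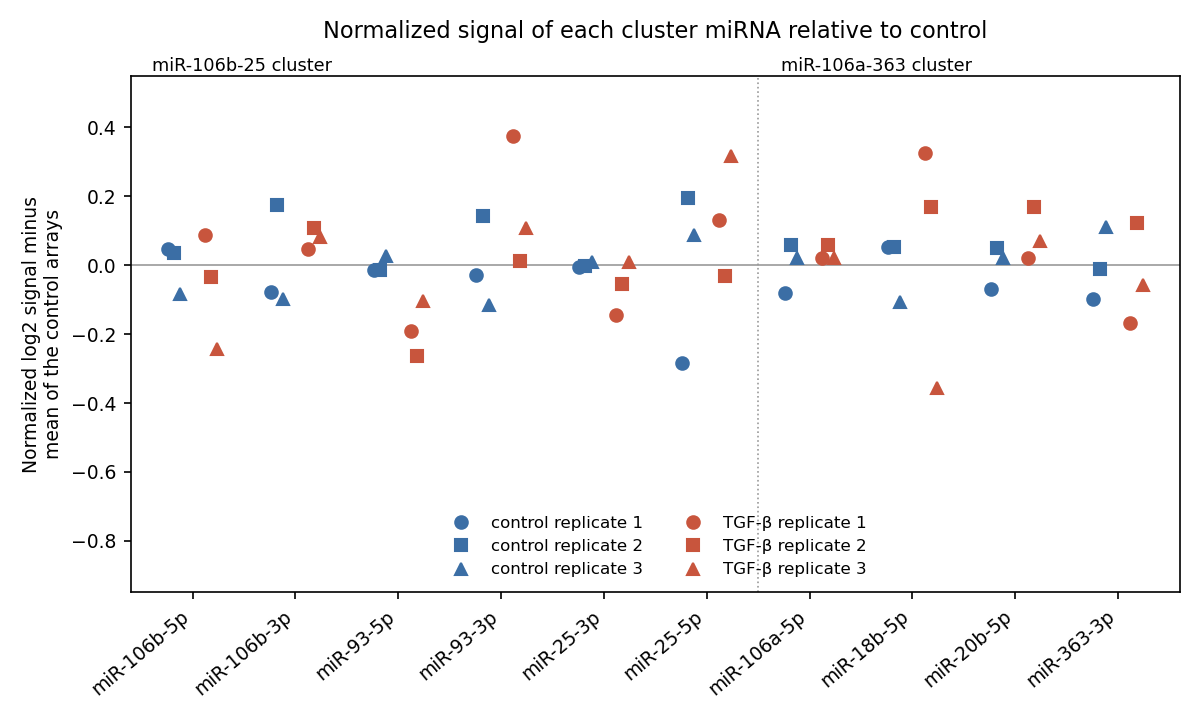
Normalized log2 signal of each member on each array, minus the mean of the 3 control arrays for that member, with blue for control and red for TGF-β. Blue and red points overlap for 9 of the 10 members, and for miR-93-5p the red points are all below the blue ones.

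The other products of the chromosome X cluster and the miRNAs of the miR-17-92 cluster also gave 0 calls in limma. Of the 8 other products, 6 were tested, and their median log2 difference was 0.16. Of these, 5 were above 0, beside 692 of 1457 for all miRNAs tested. Among them, miR-18b-3p (0.36), miR-92a-2-5p (0.33) and miR-363-5p (0.16) were near the background, between 2.47 and 7.37 blank-spot SDs above the blank mean. Of the 12 names of the miR-17-92 cluster, 2 of which are shared with the chromosome X cluster, 10 were tested, with a median of 0.16 and 8 above 0. At an unadjusted p under 0.05 in limma there were miR-19b-3p (log2 difference 0.16, adjusted p = 0.155), miR-18a-3p (0.51, adjusted p = 0.203) and miR-17-5p (0.11, adjusted p = 0.325). These are 3 of the 10 tested, beside 13.9% of all miRNAs tested. For these 3 miRNAs every TGF-β array was above every control array, which held for 8.79% of all miRNAs tested. The lists were not tested against the members or against all miRNAs.

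Of the miRNAs of other loci that share a seed with miR-106b-5p, miR-25-3p or miR-18b-5p, 6 names were on the array, and 2 of these were detected on all 6 arrays. miR-32-5p and miR-92b-3p were the ones tested, with log2 differences of 0.18 (adjusted p = 0.783 in limma) and -0.07 (adjusted p = 0.834). Detection was on 4 arrays for miR-526b-3p, 2 for miR-519d-3p, 1 for miR-367-3p and 0 for miR-4735-3p.

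**Figure D3:**
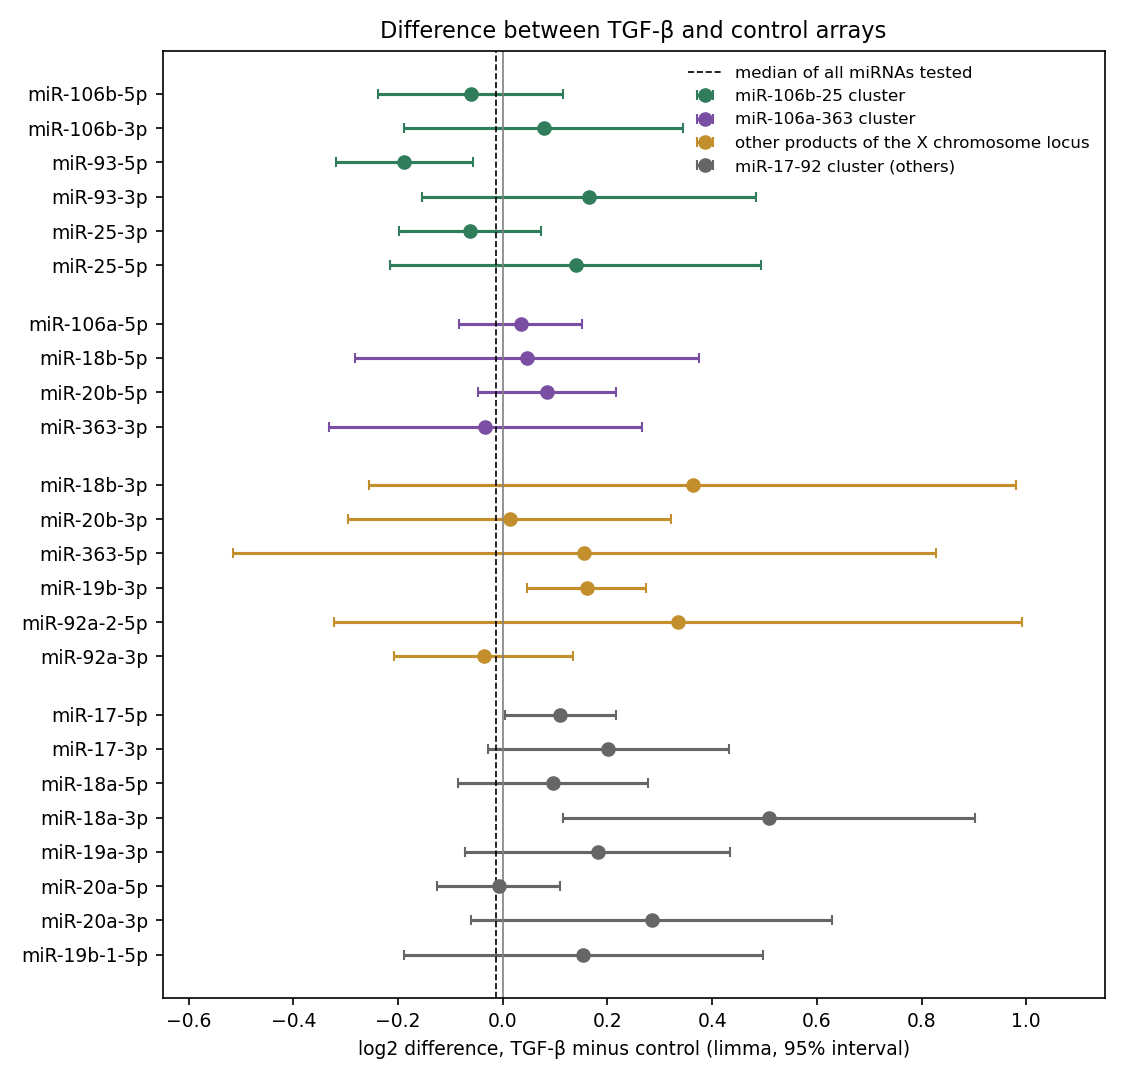
Difference of mean normalized log2 signal, TGF-β minus control, with its 95% interval from limma (n = 3 arrays in each group) for the members, the other tested products of the chromosome X cluster and the other tested miRNAs of the miR-17-92 cluster. miR-19b-3p and miR-92a-3p are drawn once and are encoded on both chromosomes. The dashed line is the median of all miRNAs tested, -0.01, and among the members the interval of miR-93-5p alone does not reach 0.

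Ratios of paired miRNAs on the same array compared the changes of the clusters with each other. Any factor common to all probes of an array cancels in such a ratio. The quantile normalization shifts signals by an amount that depends on their level, so it does not cancel. A difference between groups can thus include its effect, and it does not show which of the 2 miRNAs changed. Of 13 pairs, 3 had ratios that did not overlap between the groups, all 3 lower in TGF-β-treated cells. All 3 had miR-93-5p on top, so they share 1 probe and are not independent. Among single miRNAs tested, every TGF-β array lay below every control array for 10.1% and above for 8.79%. No such share was taken over pairs of other miRNAs, so the count of 3 has no share to be compared with. The smallest p that the exact permutation test (2-sided) allows here is 0.1, so no pair could pass, and after Benjamini-Hochberg adjustment over the 13 the lowest p was 0.433.

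Between the clusters, the log2 ratio of miR-93-5p to miR-20b-5p was -0.43, -0.55 and -0.48 for control replicates 1 to 3 and -0.70, -0.92 and -0.66 for TGF-β replicates 1 to 3. All TGF-β arrays were lower, and the difference was -0.27 (95% interval -0.52 to -0.03, exact permutation p = 0.1). It was -0.16 with median scaling, where the groups overlapped, and it ran from -0.32 to -0.19 with 1 array left out. For miR-106b-5p over miR-106a-5p the difference was -0.09 (95% interval -0.42 to 0.23, exact permutation p = 0.5), and for miR-25-3p over miR-363-3p it was -0.03 (95% interval -0.29 to 0.23, exact permutation p = 0.7), and both overlapped. With median scaling these were -0.17 and 0.06, with the local background 1.11 and -0.21, and with 1 array left out they ran from -0.17 to -0.01 and from -0.08 to 0.04. The local background gave -0.86 for miR-93-5p over miR-20b-5p.

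Against the miR-17-92 cluster, the log2 ratio of miR-93-5p to miR-20a-5p was -0.55, -0.63 and -0.62 for control replicates 1 to 3 and -0.81, -0.82 and -0.72 for TGF-β replicates 1 to 3. All TGF-β arrays were lower, and the difference was -0.18 (95% interval -0.29 to -0.07, exact permutation p = 0.1). It was -0.13 with median scaling, where the groups overlapped, and it ran from -0.21 to -0.15 with 1 array left out. The difference of miR-106b-5p over miR-17-5p was -0.17 (95% interval -0.46 to 0.12), and that of miR-25-3p over miR-92a-3p was -0.03 (95% interval -0.26 to 0.21). With 1 array left out they ran from -0.24 to -0.09 and from -0.07 to 0.04, and with the local background they were 1.17 and -0.32.

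The ratios of the chromosome X members to their chromosome 13 relatives overlapped between the groups in the main setting. The log2 ratio of miR-106a-5p to miR-17-5p, which differ at 1 base, was 0.09, 0.23 and 0.20 for control replicates 1 to 3 and 0.10, 0.09 and 0.10 for TGF-β replicates 1 to 3, with a difference of -0.08 (95% interval -0.19 to 0.04, exact permutation p = 0.3). The groups of this ratio did not overlap with median scaling, where all TGF-β arrays were lower and the difference was -0.05 (exact permutation p = 0.1). For miR-20b-5p over miR-20a-5p the difference was 0.09 (95% interval -0.09 to 0.28), for miR-18b-5p over miR-18a-5p it was -0.05 (95% interval -0.53 to 0.43), and for miR-363-3p over miR-92a-3p it was 0.00 (95% interval -0.46 to 0.46). With 1 array left out these ran from 0.03 to 0.14, from -0.14 to 0.09 and from -0.11 to 0.11, and that of miR-106a-5p over miR-17-5p from -0.10 to -0.03. miR-20b-5p over miR-20a-5p was 0.03 with median scaling and 0.58 with the local background. How much of either signal in a pair came from the other miRNA was not tested.

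Between the arms of the chromosome 7 precursors, the log2 ratio of miR-93-5p to miR-93-3p was 6.71, 6.54 and 6.84 for control replicates 1 to 3 and 6.13, 6.42 and 6.48 for TGF-β replicates 1 to 3. The groups did not overlap, with a difference of -0.35 (95% interval -0.74 to 0.04, exact permutation p = 0.1). They overlapped with median scaling (-0.23), and the sign turned with the local background (0.35). With 1 array left out this difference ran from -0.45 to -0.25. The differences were -0.14 for miR-106b-5p over miR-106b-3p (95% interval -0.50 to 0.22) and -0.20 for miR-25-3p over miR-25-5p (95% interval -0.67 to 0.27), with overlap between the groups. The first ran, with 1 array left out, from -0.22 to -0.05 (without TGF-β replicate 3) and the other from -0.31 to -0.06 (without control replicate 1), and with median scaling they were -0.08 and -0.13.

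**Figure D4:**
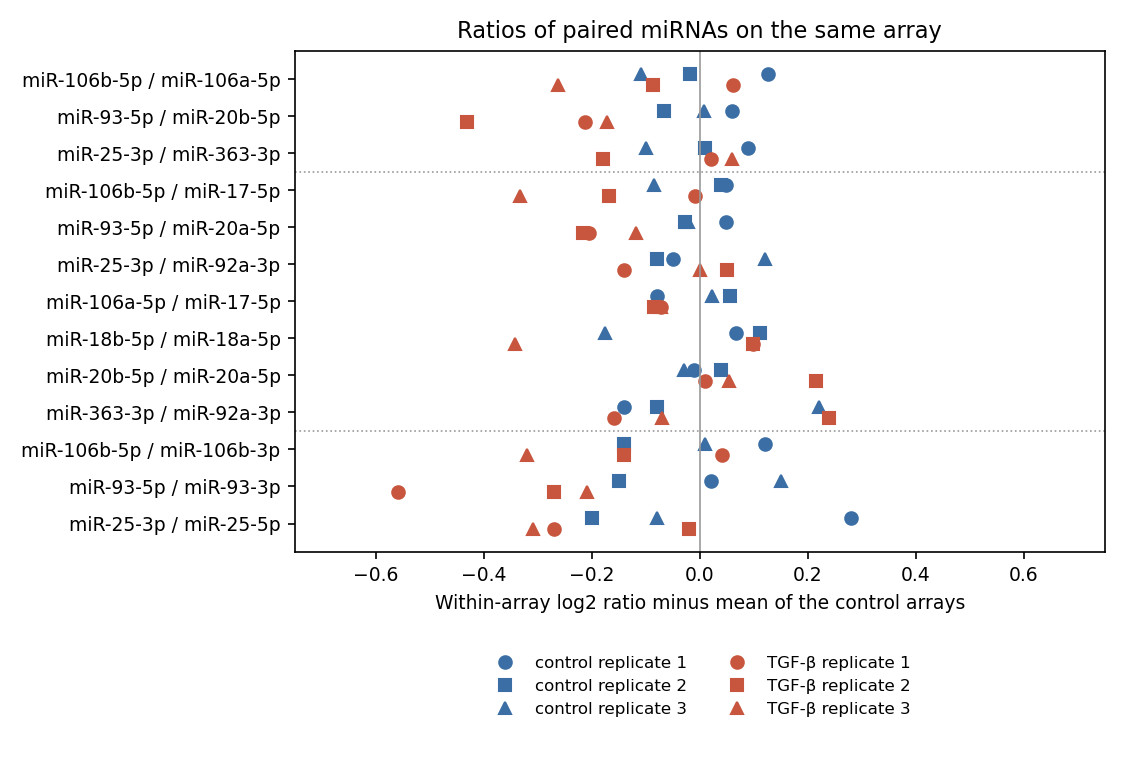
Within-array log2 ratio of 13 pairs of miRNAs, minus the mean of the 3 control arrays for that pair, with 1 point for each array, blue for control and red for TGF-β. Dotted lines separate pairs between the clusters, pairs with the miR-17-92 cluster and arms of 1 precursor, and the red points lie wholly to the left of the blue ones for the 3 pairs with miR-93-5p.

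The mean normalized log2 signal of the 6 miR-106b-25 members was 6.82, 6.97 and 6.85 for control replicates 1 to 3 and 6.93, 6.83 and 6.91 for TGF-β replicates 1 to 3. That of the 4 miR-106a-363 members was 8.05, 8.13 and 8.11 for control replicates 1 to 3 and 8.15, 8.23 and 8.02 for TGF-β replicates 1 to 3. In both clusters the groups overlapped. The miR-106b-25 mean gives the dim opposite strands the same weight as the guide strands, and no mean of the guide strands alone was taken. Among 1256 miRNAs outside the lists that were detected on all 6 arrays, those most like the miR-106b-25 mean over the 6 arrays were miR-877-3p (Pearson r = 0.992), miR-6800-5p (0.989) and miR-6728-3p (0.964). Those most like the miR-106a-363 mean were miR-301b-3p (0.940), miR-7155-5p (0.937) and miR-5591-3p (0.934). These are the highest of 1256 values over 6 arrays that share 2 slides, and they are a description only.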

How the data were processed

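For each array the authors deposited scanner output with the median intensity of 3200 spots and of their local background, not normalized, and a table of processed intensities. That table equals the signal minus the mean of the blank spots (5% trimmed at each end), scaled to a median of 25 over the detected miRNAs; rebuilt values differed by at most 0.5. Here the trimmed blank mean was subtracted, values were floored at 1 unit, log2 transformed, quantile normalized across the miRNA probes and tested in limma 3.58.1 (R 4.3.3) with lmFit and eBayes with a trend. The 3 flagged miRNA spots, none of a member, were set as missing. The local background was not the main setting because its median ratio to signals above 200 units ran from 0.434 to 0.99 between arrays. The procedure was tested on simulated arrays with changes larger than the members' differences in the main setting. That test does not bear on changes as small as theirs. Figures were drawn with matplotlib 3.10.9 in Python 3.11.15.

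Named miRNAs were the members, the other products of the chromosome X cluster, the miR-17-92 cluster, array miRNAs with the seed of miR-106b-5p, miR-25-3p or miR-18b-5p, cell type markers, and the 3 miRNAs most correlated with each cluster's mean. Members and lists were chosen with earlier results of these data known. Alternatives were local or no background correction, median or 75th percentile scaling, no normalization, 16 units added in place of the floor, the deposited values, other detection filters, a replicate block, each array left out, limma fitted robustly or with no trend, and the methods' t-test.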

Additional observations from a re-analysis of the deposited data

How the results depend on the processing

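None of the 10 members was called in any of the 20 alternatives with a limma fit or the methods' t-test, and the members' adjusted p was at least 0.0957. The cause of each change given here was not tested unless it is named. The count of miRNAs called was 58, and it was 0 with the local background (34 at an unadjusted p under 0.05), 35 without normalization, 31 in the deposited values, 19 without a filter, where more miRNAs were tested, 32 in limma without the trend, and 17 after and 194 before adjustment with the methods' t-test. With 1 array left out the count ran from 25 (without TGF-β replicate 2) to 51, on fewer samples. With the replicate block the count was 60, miR-93-5p had an adjusted p of 0.0957 and no member was called. The replicate number is also the array's position on its slide, so the block is one of position too. Whether equal numbers pair the arrays is not settled. Over 1282 miRNAs, the departures of arrays with equal numbers from the mean of each group correlated at 0.129, 0.111 and -0.0274. Of the 6 arrays, 3 correlated best with their own number. The local background reversed the log2 difference of miR-106b-5p (1.66), miR-93-5p (0.321), miR-93-3p (-0.0249), miR-25-5p (-0.0102) and miR-363-3p (0.00859), and the ratios of miR-106b-5p over miR-106a-5p (1.11), miR-17-5p (1.17) and miR-106b-3p (1.62), of miR-106a-5p over miR-17-5p (0.0581), miR-18b-5p over miR-18a-5p (0.49), miR-363-3p over miR-92a-3p (-0.105) and miR-93-5p over miR-93-3p (0.346). miR-25-3p turned to 0.0458 with median scaling, 0.0473 with 75th percentile scaling, 0.022 without normalization and 0.149 in the deposited values. In the first 3 of these settings the ratio of miR-25-3p over miR-363-3p was 0.063, over miR-92a-3p 0.0069, and that of miR-363-3p over miR-92a-3p -0.0561, and in the deposited values they were 0.0577, 0.00739 and -0.0503. The deposited values also reversed miR-106b-5p (0.081), miR-93-5p (0.0596) and miR-363-3p (0.0914), with the median of all miRNAs at 0.11 in place of -0.0135. With 1 array left out, miR-106b-5p ran from -0.13 to 0.0253, miR-25-5p from -0.00607 to 0.238, miR-106a-5p from -0.0052 to 0.0722, miR-18b-5p from -0.0952 to 0.243 and miR-363-3p from -0.11 to 0.0341. The ratios of miR-25-3p over miR-363-3p ran from -0.0808 to 0.0408, of miR-25-3p over miR-92a-3p from -0.0692 to 0.0408, of miR-18b-5p over miR-18a-5p from -0.145 to 0.094 and of miR-363-3p over miR-92a-3p from -0.11 to 0.114. The groups of the 3 ratios with miR-93-5p on top that did not overlap in the main setting overlapped with the local background, median or 75th percentile scaling, no normalization and the deposited values, and in the last 4 of these miR-106a-5p over miR-17-5p did not overlap (-0.0491, and -0.049 in the deposited values). Of the 20 alternatives, 7 change only the filter or the test and leave each member's log2 difference as it was. Under the other 13, 110 of 130 differences of members kept their sign and 20 did not. The 75th percentile, no normalization and the deposited values differ from median scaling by 1 factor for each array and so repeat its ratios apart from rounding; under the 10 alternatives left for ratios, 110 of 130 kept their sign and 20 did not. Members between 13.4 and 36.5 blank-spot SDs above the blank mean had wider intervals than the brighter members other than miR-18b-5p.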
